A study of Drosophila melanogaster with 6 samples.

Results

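The GMC (glucose-methanol-choline) oxidoreductase cluster of *Drosophila melanogaster* is a row of related enzyme genes on the X chromosome. The 10 genes described here, *CG9503*, *CG9509*, *CG9512*, *CG9514*, *CG9517*, *CG9518*, *CG9519*, *CG9521*, *CG9522* and *CG12398*, are 10 of the 17869 genes in the count tables. They were listed by symbol, with earlier results of these data known. Their RNA was measured by RNA-seq in 6 libraries of whole second-instar (L2) larvae, 3 from *Pyk 23/+* controls and 3 from *Pyk 23/31* mutants, to ask how loss of pyruvate kinase, the last enzyme of glycolysis, changes gene expression. *Pyk 23* and *Pyk 31* were made by CRISPR/Cas9, and each carries a small deletion early in the coding sequence that puts it out of frame. All larvae carried *Pyk 23*: the controls had a wild-type copy over it, and the mutants had *Pyk 31*. The mutants died in the middle of L2, so a difference between the genotypes and a difference in larval condition or progress through the instar cannot be told apart. Larval collection in the study used both sexes, and the number of larvae per RNA sample is not given in the sources used here.

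GMC oxidoreductases are flavoproteins that hold FAD and oxidise alcohol groups on sugars, sterols and other small molecules. Insects carry a large number of them in a conserved cluster, which in the fly lies inside an intron of *Flo2*, the gene of the membrane scaffold protein flotillin 2. For most of the cluster the substrate is not known, while relatives with known roles include glucose dehydrogenase (*Gld*), which acts in cuticle modification and in the reproductive tract, and ecdysone oxidase (*Eo*), which takes part in inactivating the molting hormone.

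The libraries held 11249487 to 16029304 read pairs assigned to genes, so 3 counts corresponded to 0.187 to 0.267 counts per 1e6 assigned pairs (CPM). *Pyk* RNA was 465, 442 and 419 CPM among controls and 53.7, 44.0 and 57.7 CPM among mutants. Its log2 fold change was -3.09 (SE 0.10, edgeR quasi-likelihood adjusted p = 8.4e-07), with the lower level in the libraries labelled as knockout. Replicate 3 stood apart in both genotypes. The summed level of 16 apical matrix and molt genes (the Osiris family, zona pellucida proteins and others of the new cuticle) was 228, 238 and 407 CPM in controls 1, 2 and 3, and 2665, 5371 and 445 CPM in mutants 1, 2 and 3. For the members' fold changes and calls, values without replicate 3 are given where they differ most, while shares, summed levels and correlations are given with all libraries. The study's methods call the samples of each genotype biological replicates, and the p-values measure the spread between these libraries. With 3 libraries against 3, an exact permutation test of a single gene cannot go below 0.1, so tests were fitted across all 11422 genes with at least 12 counts.

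The whole row lies on the minus strand in the longest intron of *Flo2* (FBgn0264078, plus strand, X:14839376-14933946 in the BDGP6.54 annotation), an intron of 83.2 kb at X:14841020-14924225. Read along the chromosome, the members are *CG9522* (FBgn0030587, X:14846472-14848808), *CG9521* (FBgn0030588, X:14851005-14853269), *CG9519* (FBgn0030589, X:14854328-14856361) and *CG9518* (FBgn0030590, X:14862989-14871181), followed by *CG9517* (now *CG45065*, FBgn0266435, X:14875370-14882586) and *CG9514* (FBgn0030592, X:14885952-14896891). Then come *CG9512* (FBgn0030593, X:14901844-14905549), *CG9509* (also named *fiz*, FBgn0030594, X:14906334-14909708), *CG12398* (FBgn0030596, X:14911781-14913812) and *CG9503* (FBgn0030598, X:14919252-14923493). A pair of further family genes, *CG12539* and *Eo*, sits in the same intron and is treated with the other relatives. *CG9521* and *CG9519* are annotated with a single exon, and *CG9518* has 3 annotated transcripts. RefSeq carries subfamily names for 9 of the 10, among them GMCzeta1 for *CG9518*, GMCdelta1 for *CG9514*, GMCtheta2 for *CG9521*, GMCtheta1 for *CG9519*, GMCiota1 for *CG9522*, GMCbeta2 for *CG9509* and GMCalpha1 for *CG9503*.

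**Figure D1:**
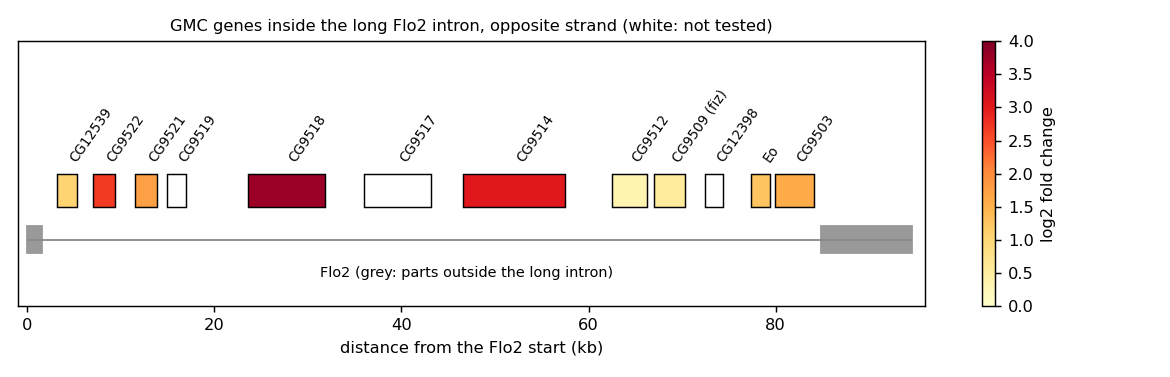
Map of the intron of *Flo2* that holds the GMC cluster, with position in kb from the start of *Flo2* on the x axis and genes drawn to scale. Colour gives the log2 fold change (mutant over control) of each GMC gene, which runs on the strand opposite to *Flo2*, and white boxes (*CG9519*, *CG9517* and *CG12398*) were not tested. *CG9518* and *CG9514*, on either side of *CG9517*, have the darkest boxes, at 3.77 and 3.04.

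Of the 10 members, 7 had enough counts to be tested, and 4 of the 7 were higher in the mutants at an adjusted p of 0.05 or less: *CG9518*, *CG9514*, *CG9509* and *CG9512*. Across all tested genes 22.2% were higher and 26.0% lower by this rule. No member was lower by edgeR's quasi-likelihood test, which also gave 0 lower at an unadjusted p under 0.05, and DESeq2 and limma-voom gave 0 lower as well. The number called higher depended on the tool: 7 of 7 by DESeq2 or by edgeR without robust dispersion, and 5 by limma-voom. The share of all tested genes that were higher was 21.76% by DESeq2, 23.65% without robust dispersion and 23.21% by limma-voom. *CG9518* and *CG9514* passed with at least a 2-fold change, 2 of 7 members beside 5.25% of all tested genes higher and 2.25% lower by that call. By DESeq2 or without robust dispersion 5 members met it, with 753 and 794 of all genes at least 2-fold higher, against 600 in the main fit. Every mutant library lay above every control library for 5 of the 7 members, against 29.4% of all tested genes. The median log2 fold change of the 7 was 1.76, and that of all tested genes was 0.02. The members' median was 2.36 without control replicate 3 and 2.41 with replicate 3 of both genotypes left out. Only members with enough counts in at least some libraries enter these counts, so they do not describe all 10. In whole larvae, fewer or more cells that express a gene and less or more RNA per cell cannot be told apart. Without control replicate 2, 2 members were called higher and 0 at least 2-fold, while 16.04% of all tested genes were higher. With replicate 3 of both genotypes left out 6 members were called higher, beside 23.31% of all tested genes. Without control replicate 3 or mutant replicate 3 the number called higher was 5, beside 22.57% and 20.15% of all tested genes. Without control replicate 1, mutant replicate 1 or mutant replicate 2 it was 3, with 1 at least 2-fold, beside 16.24%, 18.35% and 19.56% higher.

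*CG9512* and *CG9509* were abundant in both genotypes and rose by a small, even amount. *CG9512*, a family member with no established substrate, measured 228, 221 and 197 CPM in control libraries, against 277, 259 and 269 CPM in mutant libraries. The lowest mutant library was above the highest control library, and the spread within each genotype was narrow, at 215 ± 16.2 CPM (SD, n = 3) in controls and 268 ± 9.10 CPM (SD, n = 3) in mutants. Its log2 fold change was 0.32 (SE 0.07, edgeR quasi-likelihood adjusted p = 0.0048). *CG9509*, or *fezzik*, is known from work on natural populations, where its expression level has been tied to larval growth and adult body size. Its level was 47.3, 51.7 and 44.5 CPM for controls and 75.0, 66.8 and 69.8 CPM for mutants. The genotypes again did not overlap, and the log2 fold change of 0.56 (SE 0.08, edgeR adjusted p = 0.00040) was the best resolved in the cluster. Both genes stayed past the threshold in each of the 15 alternative analyses, with log2 fold changes of 0.24 to 0.37 for *CG9512* and 0.49 to 0.62 for *CG9509*.

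These neighbours differed from the other tested members in control replicate 3. *CG9512* and *CG9509* were there at 0.879 and 0.899 of the mean CPM of control replicates 1 and 2. The same ratio was 15.2 for *CG9518*, 3.99 for *CG9514*, 3.54 for *CG9522*, 2.63 for *CG9521* and 2.15 for *CG9503*. Thus control replicate 3 was raised for all 5 of the more variable members and for neither of the even pair. The difference between these ratios was not tested.

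*CG9518* and *CG9514*, neighbours of the *CG9517* locus on either side, were at about 1 CPM or less in control replicates 1 and 2 and above 12 CPM in every mutant. *CG9518* had 4, 2 and 44 counts in the controls, or 0.354, 0.172 and 3.99 CPM. In the mutants it had 446, 249 and 199 counts, or 27.5, 19.4 and 14.1 CPM. No control reached the lowest mutant, although control replicate 3 was well above the other two. The means were 1.51 ± 2.16 CPM (SD, n = 3) and 20.3 ± 6.70 CPM (SD, n = 3), with a log2 fold change of 3.77 (SE 1.01, edgeR quasi-likelihood adjusted p = 0.040). Without control replicate 3 the log2 fold change was 6.22 (adjusted p = 0.00069). The call was lost without any of the other 5 libraries, with adjusted p of 0.11 without control replicate 1, 0.095 without control replicate 2, 0.12 without mutant replicate 1, 0.10 without mutant replicate 2 and 0.059 without mutant replicate 3. The direction was the same in each of these fits. With replicate 3 of both genotypes left out the log2 fold change of *CG9518* was 6.43 (edgeR adjusted p = 7.0e-06).

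*CG9514* followed the same course at a similar level. It measured 0.973, 1.03 and 3.99 CPM in the controls (11, 12 and 44 counts) and 21.9, 14.8 and 12.5 CPM in the mutants (355, 190 and 176 counts). All mutants were above all controls, and control replicate 3 was again the highest control. From 2.00 ± 1.73 CPM (SD, n = 3) the gene rose to 16.4 ± 4.87 CPM (SD, n = 3), which is 3.04 on the log2 scale (SE 0.62, edgeR quasi-likelihood adjusted p = 0.016). Leaving out control replicate 2 lost the call (log2 fold change 2.72, adjusted p = 0.057), leaving out control replicate 3 gave 4.01 (adjusted p = 0.00010), and leaving out mutant replicate 3 gave 3.21 (adjusted p = 0.028). With replicate 3 of both genotypes left out the value was 4.18 (edgeR adjusted p = 1.6e-05).

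*CG9521* was the member with the second highest level and the widest spread among the abundant ones. Its values were 50.4, 52.2 and 135 CPM among controls and 258, 159 and 385 CPM among mutants. Every mutant exceeded every control, yet the lowest mutant and control replicate 3 lay close together. Over means of 79.1 ± 48.2 CPM (SD, n = 3) and 267 ± 113 CPM (SD, n = 3), the log2 fold change of 1.76 (SE 0.61) did not pass (edgeR quasi-likelihood adjusted p = 0.078). It passed without control replicate 3, at 2.36 (adjusted p = 0.035), and with no other single library left out. Without mutant replicate 3 the value was 1.40 (adjusted p = 0.19), and the other 4 gave adjusted p of 0.090 to 0.20. With replicate 3 of both genotypes left out *CG9521* also passed, at 2.01 (edgeR adjusted p = 0.030). Unlike *CG9518* and *CG9514*, its highest mutant library was replicate 3.

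*CG9503* and *CG9522*, at the outer ends of the listed row, overlapped between the genotypes. *CG9503* was at 1.50, 1.29 and 3.00 CPM in control libraries, against 8.80, 6.16 and 2.49 CPM in mutant libraries. *CG9522* was at 0.442, 0.944 and 2.45 CPM for controls and 16.6, 6.40 and 1.71 CPM for mutants. For both, mutant replicates 1 and 2 were above every control and mutant replicate 3 was below control replicate 3. The log2 fold changes were 1.60 (SE 0.59, edgeR adjusted p = 0.079) for *CG9503* and 2.70 (SE 1.15, edgeR adjusted p = 0.12) for *CG9522*. Without mutant replicate 3 both passed, at 1.97 (adjusted p = 0.0033) and 3.19 (adjusted p = 0.0498). Neither passed without any other single library, including control replicate 3 (2.04, adjusted p = 0.075, and 3.54, adjusted p = 0.16). With replicate 3 of both genotypes left out *CG9503* passed (2.41, adjusted p = 8.2e-05) and *CG9522* did not (4.04, adjusted p = 0.057). Without mutant replicate 1 the log2 fold change of *CG9522* was 1.66.

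The remaining members gave no measurable change. *CG9519* had 0 counts in every control and 1, 1 and 0 counts in the mutants, all under the floor of 3 counts. *CG12398* had 0 counts in all 6 libraries, which allows up to 0.187 to 0.267 CPM per library for counting error alone. *CG9517* is listed at 0 in every library, but this is no measurement. The annotation splits the locus into *CG45064* and *CG45065*, whose exons are identical and on the same strand, so that a read pair there belongs to both genes and is assigned to neither. Both are listed at 0, and no level and no upper limit can be read for this locus.

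**Figure D2:**
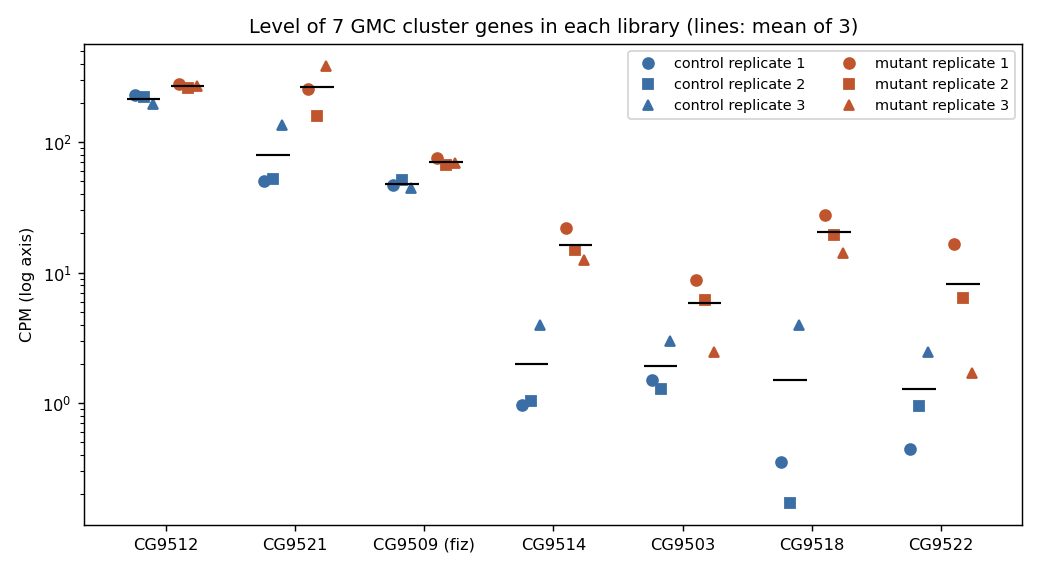
Level of each tested member in every library, in CPM on a log axis, with controls and mutants as separate points and lines at the genotype means (n = 3). *CG9512* and *CG9509* form tight groups that do not overlap, *CG9518* and *CG9514* rise from a few CPM or less to more than 12 CPM, and *CG9503* and *CG9522* overlap through replicate 3 of both genotypes.

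Levels of different genes were compared as CPM per kb of exon. In the controls *CG9512* was at 97.0 ± 7.29 CPM per kb (SD, n = 3), *CG9521* at 34.9 ± 21.3 and *CG9509* at 16.1 ± 1.21. The other 4 tested members followed at 0.764 (*CG9503*), 0.645 (*CG9514*), 0.584 (*CG9522*) and 0.381 (*CG9518*) CPM per kb, and their SDs of 0.369 to 0.558 did not separate these neighbours in the order. In the mutants *CG9512* at 121 ± 4.10 CPM per kb and *CG9521* at 118 ± 49.9 CPM per kb did not differ beyond their spread. *CG9509* was at 23.7 ± 1.41, *CG9514* at 5.29 ± 1.57, *CG9518* at 5.15 ± 1.70, *CG9522* at 3.76 ± 3.48 and *CG9503* at 2.31 ± 1.26 CPM per kb in the mutants.

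The make-up of the cluster's measured RNA therefore differed between libraries. The shares and sums here take in the listed members except *CG9517*, whose level could not be read. They also leave out *Eo* and *CG12539*, which lie in the same intron. *CG9512* made up 72.3%, 70.4% and 52.9% of the cluster's CPM per kb among controls and 43.2%, 52.0% and 37.4% among mutants. The share of *CG9521* was 15.7%, 16.3% and 35.5% in control libraries, against 39.4%, 31.3% and 52.5% in mutant libraries. Control replicate 3 thus lay within or next to the mutant range for both genes. The share of *CG9509* stayed between 7.24% and 12.3% in all 6 libraries. Summed over the same members the level was 329, 328 and 390 CPM for controls and 684, 531 and 754 CPM for mutants. All 3 mutants were above all 3 controls. Without *CG9512*, *CG9521* and *CG9509* the sum was 3.27, 3.43 and 13.4 CPM among controls and 74.8, 46.9 and 30.9 CPM among mutants.

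**Figure D3:**
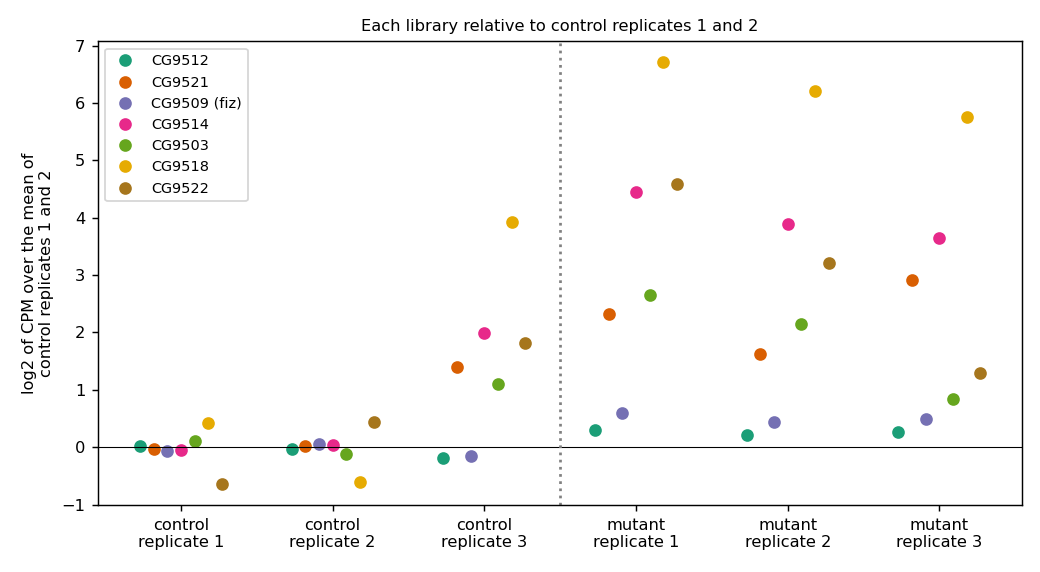
Log2 ratio of each tested member's CPM in every library to its mean in control replicates 1 and 2. *CG9512* and *CG9509* stay within 1 log2 unit of 0 in all libraries, while the other 5 members are above 0 in control replicate 3 and in all mutants.

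Correlations between members over the 6 libraries are descriptions of points that share the genotype difference, so the correlation of the deviations from the genotype means is given beside each. *CG9514* and *CG9518* had r = 0.99 on log2 CPM and 0.97 for the deviations. *CG9503* and *CG9522* had 0.97 and 0.94, and *CG9509* and *CG9512* had 0.96 and 0.72. *CG9521* had r = 0.92 with both *CG9514* and *CG9518*, and 0.68 for the deviations from each. For *CG9512* and *CG9518* the deviations ran in opposite directions (r = -0.78), with r = 0.67 on log2 CPM. *CG9514* and *Gld*, a relative on another chromosome, had 0.98 and 0.86. Over the same 6 libraries, the tested genes outside the family closest to *CG9512* were *CG15152* (r = 0.999), *CG9674* (0.996), *Vha100-5* (0.995), *CG3690* (0.991) and *AdipoR* (0.991). Those closest to *CG9509* were *baz* and *Fim* (both 0.998), *Sara* and *CG34155* (both 0.9975) and *Prat2* (0.997). These are the 5 highest of all tested genes for each member, and their deviations from the genotype means correlated with r of 0.96 to 0.99 for *CG9512* and 0.95 to 0.98 for *CG9509*. Because the genes were picked by r over the same 6 libraries, high values for the deviations follow largely from that choice and are no separate check.

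The host gene and the neighbours set the members' values in context. *Flo2* was at 50.2, 58.4 and 57.9 CPM in control libraries, against 55.4, 58.4 and 63.6 CPM in mutant libraries. The genotypes overlapped, and the log2 fold change of 0.09 (SE 0.09) did not pass (edgeR quasi-likelihood adjusted p = 0.39). Of 3 genes of other families within the member interval, none was called. *lncRNA:CR46391* had 0 counts in all libraries. *CG46399* had 2 counts in total, and *CG14406* had 0, 2 and 5 counts in control and 5, 11 and 11 counts in mutant libraries and did not pass (log2 fold change 1.58, edgeR adjusted p = 0.12). Of 1842 tested genes on X, 361 were higher and 504 lower, with a median log2 fold change of -0.02.

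Glucose dehydrogenase and other family genes outside the list were also measured. Of 5 such genes, 3 passed higher (*Gld*, *CG6142* and *Eo*), all at least 2-fold, none passed lower (0 also at an unadjusted p under 0.05, by DESeq2 and by limma-voom), and the median log2 fold change was 1.27. That median includes *CG12539* and *ninaG*, which had almost no counts. It was 2.15 over the other 3 genes, in the fit with the stricter filter that drops both. Without control replicate 3 the median of the 5 was 2.31, which is the value of *CG12539* itself (edgeR adjusted p = 0.14). No fold for the family is read from it. Of all tested genes 22.2% passed higher, and 5.25% did so at least 2-fold. *Gld*, glucose dehydrogenase on chromosome 3R, was at 5.13, 6.18 and 9.99 CPM for controls and 38.2, 34.5 and 20.8 CPM for mutants. All mutants were above all controls, with means of 7.10 ± 2.56 and 31.2 ± 9.16 CPM (SD, n = 3 each) and a log2 fold change of 2.14 (SE 0.37, edgeR adjusted p = 0.0090). *CG6142*, also on 3R, was at 0.885, 1.29 and 3.90 CPM among controls and 10.4, 15.4 and 9.03 CPM among mutants, without overlap (log2 fold change 2.52, SE 0.58, edgeR adjusted p = 0.021). *Gld* and *CG6142* had their highest control in replicate 3, as *CG9514* and *CG9518* did.

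*Eo*, the ecdysone oxidase gene between *CG12398* and *CG9503*, was low throughout, with 12, 5 and 8 counts in control libraries, against 21, 31 and 24 in mutant libraries. Its mean rose from 0.739 ± 0.316 to 1.81 ± 0.569 CPM (SD over 3 libraries). The log2 fold change was 1.27 with an SE of 0.38 (edgeR adjusted p = 0.021). The mutants did not overlap the controls, and control replicate 3 was not raised. *CG12539*, with at most 5 counts in a library (log2 fold change 1.06, edgeR adjusted p = 0.36), and *ninaG*, an enzyme of visual chromophore synthesis with at most 3 counts (0.13, edgeR adjusted p = 0.90), could not be resolved at this depth. *Gld* kept its call with any single library left out. *CG6142* lost it without control replicate 2 (adjusted p = 0.083), mutant replicate 1 (0.058) or mutant replicate 2 (0.058), and without control replicate 3 its log2 fold change was 3.38. *Eo* lost its call without control replicate 2 (0.080) or mutant replicate 2 (0.076), and with replicate 3 of both genotypes left out (0.068).

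**Figure D4:**
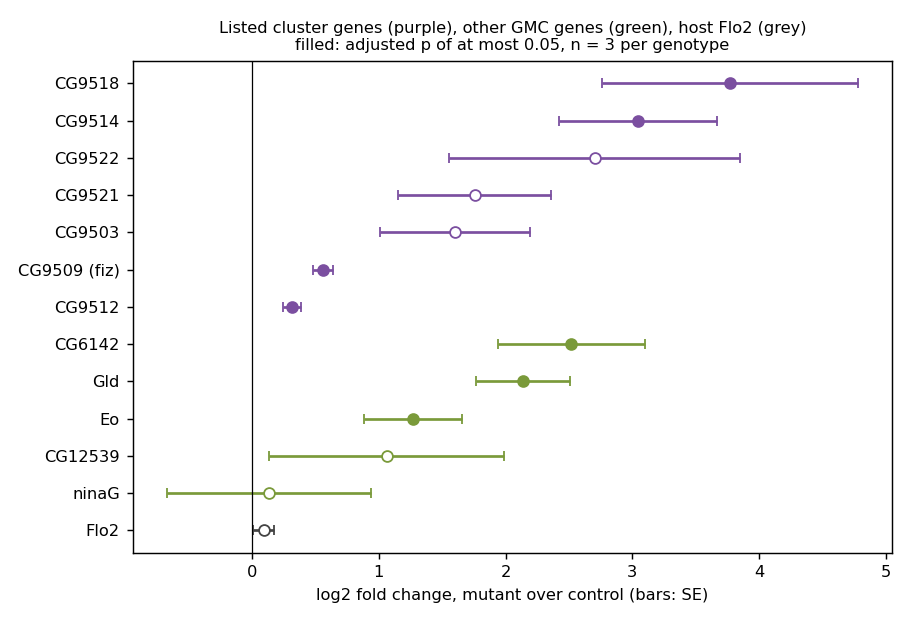
Log2 fold change (mutant over control) of each tested cluster member, other GMC gene and the host gene *Flo2*, with bars of 1 SE and filled points where the edgeR adjusted p is at most 0.05. *CG9518* and *CG9514* have the highest values among the members that pass, *CG9509* and *CG9512* have the shortest bars of the members, and *Flo2* lies at 0.09.

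Genes of ecdysteroid metabolism and of the molt are given beside the cluster because *Eo* belongs to both. *Cyp18a1*, which inactivates ecdysteroids by oxidation, was at 4.95, 6.01 and 22.0 CPM for controls and 75.2, 36.3 and 61.6 CPM for mutants. The genotypes did not overlap, but the log2 fold change of 2.40 (SE 0.74) did not pass (edgeR adjusted p = 0.060), so 1 of 2 inactivation genes, *Eo*, passed higher. Without control replicate 3 both passed, and without control replicate 2 or mutant replicate 2 neither did. Of 8 tested synthesis genes 3 passed lower, *sad* (log2 fold change -1.32), *dib* (-1.65) and *sro* (-0.92), all enzymes of the prothoracic gland pathway, and none passed higher (1 at an unadjusted p under 0.05, 0 by DESeq2 and by limma-voom). Without mutant replicate 1, 2 synthesis genes passed higher. The inactivation and synthesis counts stand beside 22.2% of all tested genes higher and 26.0% lower in the main fit. With single libraries left out, 16.04% to 22.57% of all tested genes were higher.

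Among 11 tested ecdysone response genes, 3 passed higher and 1 lower, beside 22.2% of all tested genes higher and 26.0% lower. The receptor gene *EcR* had a log2 fold change of 0.89, the nuclear receptor genes *Eip75B* and *ftz-f1* had 0.83 and 2.48, and the transporter gene *E23* had -0.34. *ftz-f1* was at 13.4, 12.9 and 39.8 CPM among controls and 154, 96.2 and 117 CPM among mutants, again with control replicate 3 the highest control. Without control replicate 3, 7 of these genes passed higher, beside 22.57% of all tested genes. Without control replicate 1 or control replicate 2, 1 did, beside 16.24% and 16.04% of all tested genes. Of the 16 apical matrix and molt genes none passed in the main edgeR fit (5 at an unadjusted p under 0.05), and their median log2 fold change was 4.37. The number higher was 10 by edgeR without robust dispersion, 12 by DESeq2 and 1 by limma-voom. Of all tested genes, 23.65%, 21.76% and 23.21% were higher in these fits. Without mutant replicate 3, 7 passed higher with a median of 4.94, and without control replicate 3, 1 did with a median of 7.79. Of all tested genes, 20.15% and 22.57% were higher in these fits. With replicate 3 of both genotypes left out 12 passed higher, beside 23.31% of all tested genes, and the median of the 16 was 8.25. The part that these genes have in the cluster's values was not tested.

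Marker genes of 6 tissues were read beside the cluster, and their counts stand against the 22.2% of all tested genes that were higher and the 26.0% that were lower. With single libraries left out, 16.04% to 22.57% of all tested genes were higher. No marker in these lists was at 0 in all libraries. Midgut markers summed to 1306 to 1470 CPM in control libraries, against 2151 to 2531 CPM in mutant libraries, with 8 of 11 higher, such as the trypsin gene *betaTry* (log2 fold change 1.81) and the septate junction gene *mesh* (0.88). Malpighian tubule markers summed to 236 to 269 CPM for controls and 326 to 394 CPM for mutants, with 3 of 10 higher (*ClC-a* at 0.64, *tsh* at 0.47 and *Uro* at 1.37) and 1 lower (*Oatp58Da*, -0.75). Without mutant replicate 1, 2 tubule markers were higher and 2 lower, and 2 were higher without any other single library but control replicate 3. Tracheal markers summed to 1560 to 2342 and 3044 to 3653 CPM, with 3 of 5 higher, and 1 of 5 when control replicate 1, control replicate 2 or mutant replicate 1 was left out. Fat body markers summed to 7544 to 7958 CPM among controls and 5432 to 6156 CPM among mutants, with 3 of 6 tested lower and 1 higher. Most of that sum was *apolpp*, with means of 6903 CPM in controls and 5160 CPM in mutants. The list's median log2 fold change was 0.30, and -0.17 with the stricter filter. Hemocyte markers summed to 271 CPM in each control, within the 252 to 295 CPM of the mutants (2 of 9 higher, 1 lower), and germline markers to 16.7 to 18.4 and 23.0 to 26.7 CPM (3 of 6 higher). With single libraries left out, 0 to 2 fat body markers passed higher (0 without control replicate 1, control replicate 3, mutant replicate 1 or mutant replicate 2) and 2 to 3 lower. The hemocyte count was 1 higher without control replicate 1, control replicate 2, mutant replicate 1 or mutant replicate 3, and 0 lower without control replicate 1, control replicate 2, mutant replicate 2 or mutant replicate 3. The germline count was 1 without control replicate 1, control replicate 2 or mutant replicate 3 and 2 without any other single library. The part of these tissues in the cluster's differences was not tested.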

How the data were processed

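RNA from whole L2 larvae was sequenced by the authors in paired-end runs from Illumina TruSeq Stranded mRNA libraries. The authors deposited unnormalized counts of read pairs per gene for each library, in the layout STAR writes. STAR and BDGP6 are named by the submitters' processing notes, and the STAR version is not given in the sources used here. Kallisto, another route, is named in the study's methods for its own tables. The counts of column 4, the strand of the kit, were used; 2.50% to 2.55% of pairs lay on the opposite strand. The 486 rows not named by gene held 0.0329% to 0.0461% of pairs and were left out.

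Genes with at least 12 counts over the 6 libraries were tested with edgeR 4.0.16 (R 4.3.3), TMM scaling and the robust quasi-likelihood test on the 3 control and 3 mutant libraries, and p-values were adjusted by Benjamini-Hochberg over all 11422 genes. A call was an adjusted p of 0.05 or less, and a 2-fold call also a log2 fold change of at least 1. CPM used TMM-scaled totals, apart from opposite-strand CPM and the CPM of 3 counts, which used unscaled totals. SE is the log2 fold change over the root of F. Alternatives were DESeq2 1.42.0, limma-voom (limma 3.58.1), library totals, other filters, unstranded counts, a fit without robust dispersion, a replicate block and fewer libraries. The scripts were tested on simulated data. Replicates of 1 genotype differed by more than counting noise (chi-square over its degrees of freedom 3.51 to 29.7), so none were merged.

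The members and gene lists (other GMC genes, ecdysteroid synthesis, inactivation and response, apical matrix and molt, and markers of midgut, Malpighian tubule, fat body, trachea, hemocytes and germline) were chosen with earlier results of these data known. Named genes are all members, the other family genes, *Flo2*, *Pyk*, the other genes of the interval, the 5 genes most like the most abundant member and the member with the smallest p, and up to 4 examples per list by p. Coordinates, exon lengths and symbols are from BDGP6.54, and subfamily names from RefSeq. Floors take in counting error alone, because copies made by PCR are not separate molecules.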

Additional observations from a re-analysis of the deposited data

Results flagged for a closer look

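Read pairs on the strand opposite to *CG9512*, which the comparisons do not use, averaged 1.30 CPM in the mutants (1.25, 1.28 and 1.38 CPM, from 20, 16 and 19 counts), above the 0.344, 0.933 and 0.533 CPM of the controls (4, 11 and 6 counts). They made up 0.443% to 0.500% of the gene's pairs in the mutants and 0.155% to 0.426% in the controls, under the 2.50% to 2.55% of all pairs. The difference was not tested. These CPM used library totals without TMM scaling. The opposite strand is that of *Flo2*, whose intron holds *CG9512*, and the part of *Flo2* RNA in these pairs was not tested.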

How the results depend on the processing

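The members called higher numbered 4, and 7 with DESeq2 or without robust dispersion, and those at least 2-fold higher numbered 2, and 5 in both of these. With replicate 3 of both genotypes left out 6 members were called higher, and the 2-fold count was 4. In that fit 23.31% of all tested genes were higher and 887 were at least 2-fold higher. With single libraries left out the counts ran from 2 to 5 and from 0 to 3. In those fits 16.04% to 22.57% of all tested genes were higher, and 385 to 804 were at least 2-fold higher. No member was lower in any of the 15 alternatives, and no member changed sign. Replicate numbers do not pair the libraries: same-numbered libraries deviated with r of -0.29, -0.10 and -0.31, and no library correlated best with its own number. A replicate block gave 3 members higher and 1 at least 2-fold higher, beside 22.09% of all tested genes higher and 537 at least 2-fold higher. Genes passing in either direction numbered 5442, in place of 5508. Under this block *CG9521* gained a call (1.82, edgeR adjusted p = 0.016), and *CG9514* (0.093), *CG9518* (0.15), *Gld* (0.088) and *CG6142* (0.094) lost theirs. Over the alternatives *CG9514* passed in 13, *CG9518* in 9, *CG9521* in 6, *CG9503* in 4 and *CG9522* in 3. The log2 fold change of *ninaG*, with at most 3 counts, turned negative with unstranded counts (-0.12), with replicate 3 of both genotypes left out (-0.33) and with single libraries left out (lowest -0.14, highest 0.81). Of all genes, 600 were called at least 2-fold higher and 385 without control replicate 2. The causes were not tested. Depth limits *CG9519*, *CG12398*, *CG12539* and *ninaG*, for which no fold could be read.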
